A study of Mus musculus with 14 samples.

Results

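The 10 genes described here are tight junction and transport genes of barrier endothelium together with Plvap, and they were taken by symbol: Cldn5, Ocln, Tjp1, Mfsd2a, Slc2a1, Abcb1a, Abcg2, Slco1c1, Slco1a4 and Plvap. All 10 were found among the 55335 genes counted, and 9 of them passed the filter on low counts in endothelial-like cells; Plvap did not. Their transcripts were followed by single-cell RNA sequencing of whole spinal cord from mice of age P115-120, in 14 libraries of 4 groups. SOD1 (3 libraries, strain B6SJL-Tg(SOD1*G93A)1Gur/J) carried the mutant human SOD1 transgene, a model of amyotrophic lateral sclerosis that is expressed in many cell types and not in endothelium alone. Clec7aKO (4 libraries, strain B6.129S6-Clec7atm1Gdb/J) carried a whole-animal knockout of Clec7a, a myeloid pattern receptor. SOD1_Clec7aKO (4 libraries, strain SOD1G93A/Clec7a KO) combined the transgene with the knockout, and nTg (3 libraries) is the label of the remaining group. The strain names differ between the groups together with the alleles, so strain background and allele cannot be told apart. Cords of all groups were perfused, dissociated with enzymes at 37 degrees and freed of myelin before capture. The labels do not say whether each library is a separate animal, so p-values measure the spread between these libraries only.

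The endothelium of the spinal cord, like that of the brain, restricts exchange between blood and tissue. Tight junction strands close the gaps between neighbouring cells, few vesicles cross the cell, and dedicated transporters carry glucose, lipids, hormones and drugs in or out. Plvap forms the diaphragms of fenestrae and caveolae in leaky vessels and is silenced when barrier endothelium matures.

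Libraries held 28819852 to 141204910 unique molecular identifiers (UMIs), and 89225 cells were kept, 2554 to 10220 per library. Clec7a had 33 to 240 UMIs in knockout libraries, 755 to 1767 in nTg and 57449 to 101134 in SOD1. Pairs of libraries shared 2 to 44 cell barcodes. Endothelial-like cells, 3 clusters that expressed 13 of 13 endothelial markers, numbered 11180 in all and 299 to 1329 per library, with 2048616 to 13599374 UMIs of the class per library and a median of 4283 to 10367 UMIs per cell. They made up 16.7 to 21.3% of kept cells in nTg, 16.7 to 19.0% in Clec7aKO, 8.96 to 10.3% in SOD1 and 4.34 to 11.7% in SOD1_Clec7aKO. The labels also number the libraries across groups. Those numbered 13, 15 and 16, which are SOD1_Clec7aKO replicates 3 and 4 and Clec7aKO replicate 4, stood apart from the other 11, so the contrasts of the barrier genes in summed endothelial-like cells that hold them are also given without them, and so are the main differences in other classes. Fits within endothelial sub-clusters were not run without them. Xist, which marks female cells, stood above the Y-linked Ddx3y in 2 of 3 nTg, 1 of 4 Clec7aKO, 0 of 3 SOD1 and 1 of 4 SOD1_Clec7aKO libraries, so sex was not balanced between the groups. A further 11933 kept cells lay in 11 clusters given no name, the largest of 6983 cells.

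In summed endothelial-like cells, 3 of the 9 genes compared lay below the range of the other 11 libraries in all 3 of these (Cldn5, Tjp1 and Abcb1a) and 1 lay above it (Mfsd2a). Of all 13196 genes tested, 9.01% lay below and 9.23% above in the same way, 18.2% in all. What the number marks is not stated in the labels, and its part in the results was not tested beyond the values given here.

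Promoter windows are shown for 3 of the genes that changed with the transgene outside the endothelium, as given further on. Others that changed there, such as Abcg2 and Tjp1, are not shown. The windows cover 250 bases before to 50 after the start in RefSeq (GRCm38.p6), and were found for 9 of the 10 genes. Capitals mark the letters CTTTG, the core bound by the TCF and LEF factors of Wnt signalling, and ACGTG, the core of the hypoxia response element, on either strand. In the Slco1c1 window the letters CACGTG hold ACGTG on both strands, and no CTTTG overlaps an ACGTG in the 3 windows.
Mfsd2a (chr4:122961139-122961438, minus strand): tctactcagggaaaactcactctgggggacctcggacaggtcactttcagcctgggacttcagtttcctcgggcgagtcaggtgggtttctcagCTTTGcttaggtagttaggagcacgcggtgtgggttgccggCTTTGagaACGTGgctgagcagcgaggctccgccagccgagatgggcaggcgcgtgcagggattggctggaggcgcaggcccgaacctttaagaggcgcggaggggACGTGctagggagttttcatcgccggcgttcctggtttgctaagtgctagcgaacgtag
Slco1c1 (chr6:141524104-141524403, plus strand): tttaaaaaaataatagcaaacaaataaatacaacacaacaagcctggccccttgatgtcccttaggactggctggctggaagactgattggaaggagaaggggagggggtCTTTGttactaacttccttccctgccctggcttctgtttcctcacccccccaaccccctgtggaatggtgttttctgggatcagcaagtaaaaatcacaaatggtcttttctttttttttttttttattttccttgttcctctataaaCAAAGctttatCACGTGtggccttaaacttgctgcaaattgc
Slc2a1 (chr4:119108495-119108794, plus strand): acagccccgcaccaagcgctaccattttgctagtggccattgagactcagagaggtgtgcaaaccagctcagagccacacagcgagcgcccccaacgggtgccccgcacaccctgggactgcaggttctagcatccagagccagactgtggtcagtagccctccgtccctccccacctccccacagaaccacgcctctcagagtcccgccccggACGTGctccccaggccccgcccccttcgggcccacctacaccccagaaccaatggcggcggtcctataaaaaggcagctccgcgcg
The Mfsd2a and Slco1c1 windows each held CTTTG at 2 places. Mfsd2a held ACGTG at 2, Slco1c1 on both strands of 1 CACGTG, and Slc2a1 at 1 place, 36 bases before the start. Over all 32851 mouse promoter windows, 53.9% held CTTTG and 19.6% held ACGTG. Among the 9 genes with a window, 5 held CTTTG and 4 held ACGTG, and Cldn5 held neither in its window. Of the genes not shown, Abcg2 held CTTTG but no ACGTG, and Tjp1 held ACGTG but no CTTTG. These genes had 12 windows, and a gene counted if any of them held the letters. The counts are therefore not directly comparable with the shares per window. The Abcb1a window (chr5:8566841-8567140) lies before the gene start printed further on. These matches describe letters only.

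Cldn5 (GRCm38 chr16:18776847-18778262, plus strand) encodes claudin-5, the main claudin of barrier endothelium. Its level in the endothelial-like sum, as UMIs per common library total (CPM, scaled by TMM), was 6029, 7429 and 5979 in nTg, and 8828, 6892 and 5834 in SOD1. In Clec7aKO it was 7094, 5477, 6430 and 2259, and in SOD1_Clec7aKO 5706, 7548, 3679 and 2617. The last value of Clec7aKO and the last 2 of SOD1_Clec7aKO are the libraries numbered 13 and above, and all 3 were lower than any other library, whereas the transgenic and non-transgenic groups overlapped. Within Clec7aKO the high-numbered library stood at 0.357 of the mean of the rest, and within SOD1_Clec7aKO at 0.475.

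Ocln (chr13:100496507-100552718, minus strand) encodes occludin, a membrane protein of the same junctions. It measured 341, 369 and 341 CPM in nTg, 358, 388, 334 and 398 in Clec7aKO, 279, 352 and 343 in SOD1 and 315, 232, 365 and 469 in SOD1_Clec7aKO. SOD1_Clec7aKO held both the lowest and the highest library of the series. Tjp1 (chr7:65296165-65527781, minus strand) encodes ZO-1, the scaffold that ties junction proteins to actin. It measured 668, 450 and 506 CPM in nTg, 566, 654, 481 and 300 in Clec7aKO, 487, 610 and 645 in SOD1 and 613, 531, 289 and 347 in SOD1_Clec7aKO, and groups overlapped throughout.

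Mfsd2a (chr4:122946850-122961188, minus strand) encodes the carrier of lysophospholipids that hold docosahexaenoic acid and is known to limit vesicle traffic across barrier endothelium. It measured 313, 375 and 358 CPM in nTg, 265, 330, 350 and 479 in Clec7aKO, 326, 291 and 286 in SOD1 and 286, 342, 415 and 532 in SOD1_Clec7aKO. The 3 highest values belonged to the libraries numbered 13 and above, at 1.52 and 1.51 times their group mates. Slc2a1 (chr4:119108711-119137983, plus strand) encodes GLUT1, the glucose carrier of the barrier. It measured 2404, 2478 and 2295 CPM in nTg, 2199, 3382, 2391 and 3735 in Clec7aKO, 2153, 2567 and 3237 in SOD1 and 2680, 2693, 2987 and 4482 in SOD1_Clec7aKO. Its highest library, SOD1_Clec7aKO replicate 4, lay well above the other 3 of its group.

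Abcb1a (chr5:8660077-8748575, plus strand) encodes P-glycoprotein, the efflux pump that returns many drugs to the blood. It measured 1563, 1313 and 1440 CPM in nTg, 1345, 1626, 1514 and 868 in Clec7aKO, 1385, 1471 and 1432 in SOD1 and 1406, 1313, 825 and 965 in SOD1_Clec7aKO. Outside the libraries numbered 13 and above its highest value was 1.24 times its lowest, the narrowest spread among the 9 genes. Abcg2 (chr6:58584523-58695676, plus strand), the breast cancer resistance pump, ranged from 871 to 1256 CPM over all 14 libraries.

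Slco1c1 (chr6:141524368-141570177, plus strand) encodes OATP1C1, a carrier of thyroxine, and ranged from 1226 to 1998 CPM. Slco1a4 (chr6:141805440-141856199, minus strand) encodes an organic anion carrier of the same family and ranged from 1507 to 2634 CPM, with both ends of that range in SOD1_Clec7aKO. Reads of Abcb1a and Slco1a4 could have been split with near-identical family members, and Tjp1, Slc2a1, Abcb1a and Plvap overlap other annotated genes, so their levels are uncertain to that extent. Because reads were counted at 3′ ends, levels are not compared between genes.

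Plvap (chr8:71497765-71511752, minus strand) had 20 UMIs in all 11180 endothelial-like cells. Its level ran from 0 to 0.818 CPM, at or under the floor of 3 UMIs in 12 of 14 libraries, so no fold is given. After thinning each cell to 2000 UMIs, which left out 539 shallower cells, 4 of 10641 endothelial-like cells held a Plvap UMI, a share of 0.0376% (exact 95% interval 0.0102 to 0.0962%, counting error only). Among microglia-like cells, which should lack the gene, the share was 34 of 39870, or 0.0853%, with library medians of 5375 to 21586 UMIs per cell before thinning against 4283 to 10367. Pooled over all libraries, the endothelial share was at or below that background. The background was not even between groups: Plvap stood at 0.750 to 1.41 raw CPM in microglia-like sums of nTg and Clec7aKO and at 0.0700 to 0.432 in those of SOD1 and SOD1_Clec7aKO, and in those sums it fell by 2.14 on the log2 scale in SOD1 (SE 0.52, edgeR adjusted p 0.00600) and by 1.29 in SOD1_Clec7aKO (SE 0.47, adjusted p 0.0394). Those microglia-like calls rest on 180 UMIs, and Plvap may have passed the filter there only through libraries where it was high. The endothelial-like sums of SOD1 held 0, 5 and 1 UMIs of Plvap. The 5 UMIs of replicate 2 (0.818 CPM) stood above the 0.119 raw CPM of its microglia-like sum. In endothelial-like cells, differences between groups in the share gave two-sided exact permutation p of 1.0 for SOD1 against nTg, 1.0 for SOD1_Clec7aKO against Clec7aKO and 0.714 for SOD1_Clec7aKO against SOD1. The smallest p that groups of these sizes allow are 0.1, 0.0286 and 0.0571, but only where shares are not tied. Only 4 cells held a UMI and most libraries had a share of 0, among them all of nTg. These tests could therefore not reach those values, and the result for SOD1 against nTg was fixed in advance. They decide nothing about Plvap.

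**Figure D1:**
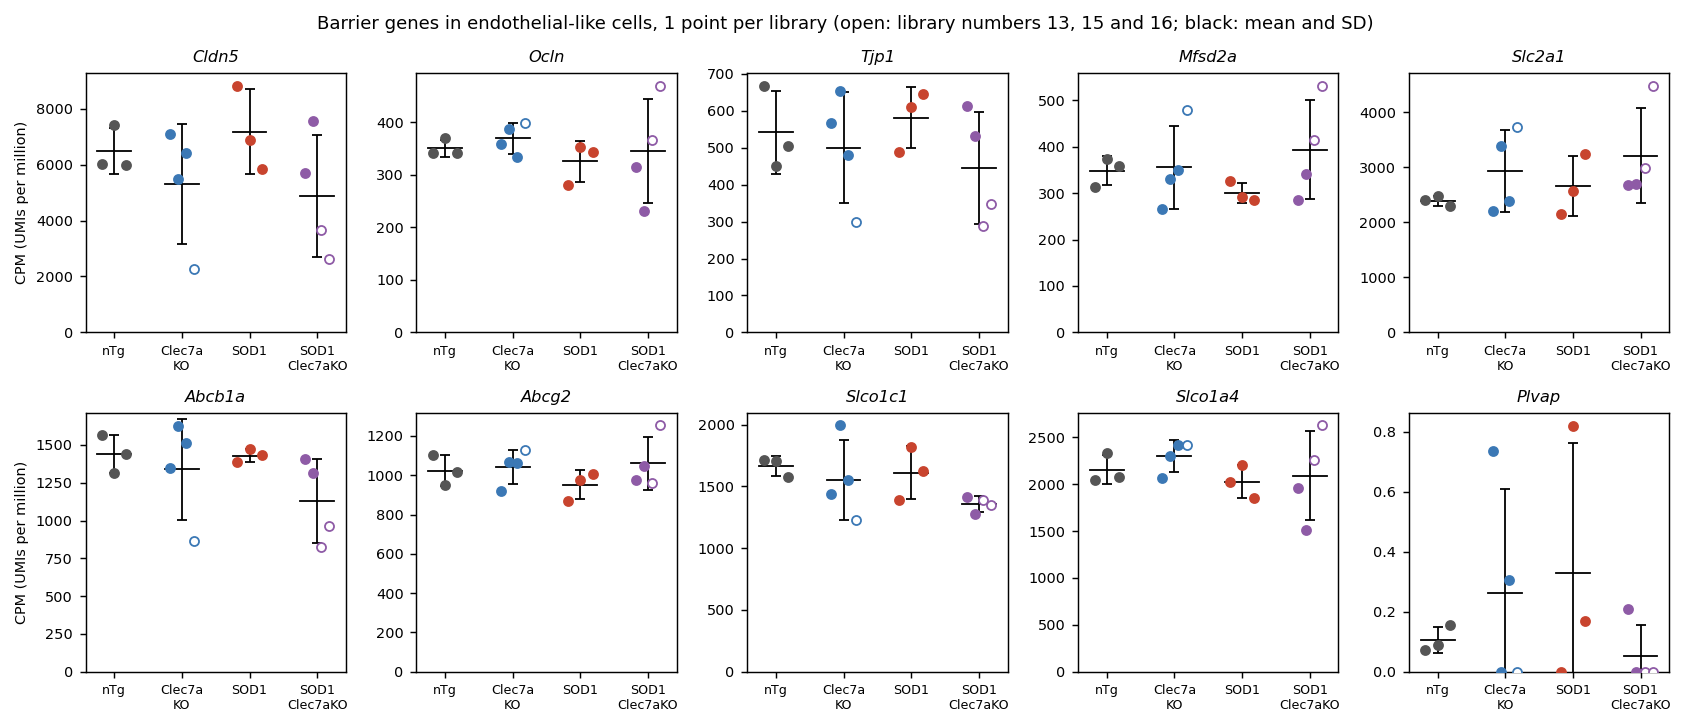
Levels of the 10 genes in summed endothelial-like cells (y axis, CPM scaled by TMM) for each library by group (x axis); each point is 1 library, open points are the libraries numbered 13 and above, and black bars are group means with SD. Cldn5, Tjp1 and Abcb1a are lowest and Mfsd2a is highest in the 3 open points, and Plvap stays at or below 0.818 CPM.

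The other 9 genes were seen in more endothelial-like than microglia-like cells. At 2000 UMIs per cell, Cldn5 was seen in 96.8 to 100.0% of endothelial-like cells per library and in 0.486 to 4.52% of microglia-like cells. Slco1a4 was seen in 93.2 to 98.3% against 0.239 to 1.74%, Slco1c1 in 87.8 to 96.2% against 0.162 to 1.87%, and Abcb1a in 77.3 to 94.2% against 0 to 0.965%. Ocln and Mfsd2a were seen in 36.9 to 63.4% and 36.3 to 60.7% of endothelial-like cells. Their microglia-like shares were 0.145 to 0.747% and 0.0829 to 1.40%. Slc2a1 was seen in 97.4 to 100.0% of endothelial-like and 7.92 to 29.1% of microglia-like cells, and Abcg2 in 81.8 to 92.2% and 4.64 to 7.48%. Tjp1 stood closest, at 41.9 to 71.3% against 4.76 to 28.3%.

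In endothelial-like cells no barrier gene passed the test for a change with the transgene. Between SOD1 and nTg, edgeR's quasi-likelihood test called 0 of 9 at an adjusted p under 0.05 (Benjamini-Hochberg over all genes), 0 had an unadjusted p under 0.05 and 0 had groups without overlap. Of all 13196 genes tested, 0.697% were called, 5.87% had an unadjusted p under 0.05 and 13.7% had no overlap. The differences ran from -0.21 on the log2 scale for Mfsd2a to 0.15 for Cldn5, with a median of -0.05 beside 0.00 for all genes. With the library number as a covariate the direction turned for 5 genes, among them both ends of that range. Cldn5 stood at -0.47, Tjp1 at -0.25 and Mfsd2a at 0.094, again with no call. SOD1 libraries are numbered 1, 5 and 6 and nTg libraries 8, 9 and 12, so the number separates these groups completely. The slope of that fit comes from the order of libraries within groups, including those numbered 13 and above. The contrast itself cannot separate library number from transgene. The 95% intervals of the 9 genes spanned folds from 0.616 to 1.98, and from 0.695 to 1.49 in a fit without the libraries numbered 13 and above. These are the outermost ends over the 9 genes, and those of single genes were narrower (Abcg2 0.732 to 1.18 from all libraries). Changes within the bounds of a gene cannot be told from none in that gene. SOD1 and nTg hold no library numbered 13 or above, so the fit without those left the differences nearly unchanged. It altered the estimated spread, with an SE for Cldn5 of 0.20 in place of 0.39. With the replicate number as a block, again 0 of 9 were called (1.24% of all genes, 164 in place of 92). The labels do not give this pairing. It was taken from the same data, where same-numbered libraries of these groups deviated together weakly (r 0.11 to 0.15). Calls gained with it, here and further on, are therefore a description only. The block was fitted over all 14 libraries. Its replicate 4 holds only the Clec7aKO library numbered 16 and the SOD1_Clec7aKO library numbered 15. Some pairs with different numbers in other contrasts correlated more. With Xist above Ddx3y as a covariate 0 of 9 were called and 33 of all genes.

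On the knockout background the transgene also gave 0 of 9 calls, with 0 at an unadjusted p under 0.05 and 0 without overlap (all genes 0.682%, 10.1% and 4.85%). Differences between SOD1_Clec7aKO and Clec7aKO ran from -0.25 for Abcb1a to 0.15 for Mfsd2a, with a lowest adjusted p of 0.710 by edgeR and intervals from 0.556-fold to 1.52-fold. Without the libraries numbered 13 and above, 2 libraries of SOD1_Clec7aKO and 3 of Clec7aKO remained, and Ocln stood 0.40 lower (SE 0.17, adjusted p 0.323) and Slco1a4 0.39 lower (SE 0.17, adjusted p 0.341) on the log2 scale. Both had an unadjusted p under 0.05 in that fit, and neither passed the correction. The share of all genes under that threshold in that fit is not given here, so the 2 genes are a description only. The mean of the 2 transgene contrasts called 0 of 9 (all genes 1.8%), and their difference called 0 of 9 (all genes 0.0%, 0 of 13196, and 1.6% at an unadjusted p under 0.05). Without the libraries numbered 13 and above, the mean for Ocln was -0.25 (SE 0.11) and that for Slco1a4 -0.24 (SE 0.11), each over 1.5 times its value from all libraries. Ocln alone then had an unadjusted p under 0.05, again without the share of all genes beside it and so a description only. In that fit 0 of 9 passed the correction in the mean (lowest edgeR adjusted p 0.238) or in the difference.

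SOD1_Clec7aKO and SOD1 differed most in Cldn5, by -0.56 (SE 0.37), in Mfsd2a, by 0.39 (SE 0.22), in Tjp1, by -0.38 (SE 0.28), and in Abcb1a, by -0.34 (SE 0.22). With edgeR 0 of 9 were called, 0 had an unadjusted p under 0.05, the lowest adjusted p was 0.646 for Mfsd2a and 0 were without overlap (all genes 0.00758% called, 7.17% unadjusted, 6.12% without overlap). SOD1 holds no library numbered 13 or above. When those libraries were left out, the same 4 differences were -0.12, 0.06, -0.02 and -0.07, with 95% intervals of all 9 genes from 0.632-fold to 1.40-fold. Clec7aKO and nTg differed by -0.29 for Cldn5 to 0.29 for Slc2a1, with 0 of 9 called, 0 at an unadjusted p under 0.05 and 0 without overlap (all genes 0.0%, 2.28% and 3.46%). Without Clec7aKO replicate 4 and the other libraries numbered 13 and above, the range was -0.15 for Mfsd2a to 0.15 for Slc2a1, and Cldn5 stood at -0.034.

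**Figure D2:**
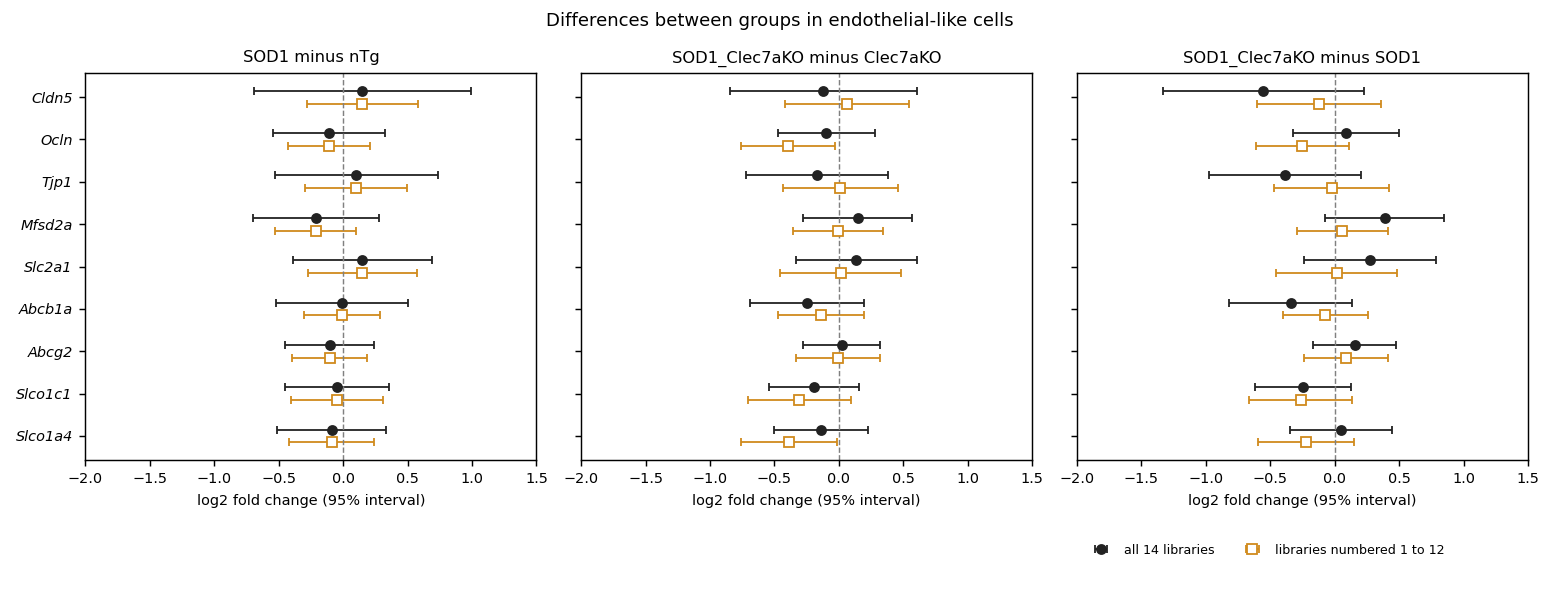
Differences between groups (x axis, log2 scale) for the 9 tested genes (y axis) in endothelial-like cells, 1 panel per contrast; points are edgeR estimates from all 14 libraries and from the 11 numbered 1 to 12, and lines are 95% intervals. Every interval from all 14 libraries crosses 0, and the SOD1_Clec7aKO minus SOD1 differences of Cldn5, Tjp1, Mfsd2a and Abcb1a lie closer to 0 in the 11 libraries.

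Markers of other cells moved with the groups within the same sums. The 12 microglia markers together, all with UMIs, stood at 140 to 217 CPM in nTg, 229 to 792 in Clec7aKO, 719 to 1448 in SOD1 and 697 to 1769 in SOD1_Clec7aKO, beside 17004 to 20351 CPM for the 13 endothelial markers. Their part in the barrier results was not tested. Without the endothelial sub-clusters led by genes of microglia, mural cells or astrocytes, 0 of the 9 genes were called in SOD1 against nTg, beside 60 of all genes in place of 92.

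Levels of the barrier genes also differed between endothelial sub-clusters. Endothelial-like cells fell into 7 sub-clusters, of which 3 are described: an arterial-like sub-cluster of 2609 cells (led by Gkn3, Vegfc and Sema3g), a venous-like one of 3495 (Vcam1, Cyp2e1, Lcn2) and an unnamed one of 2864 led by Apln, mt-Ts2 and Pgf, with a median depth of 0.660 of that of its samples. The rest were 459 cells led by interferon-induced genes and 954, 506 and 293 cells led by genes of mural cells, astrocytes and microglia. No sub-cluster met the capillary name, so capillary cells may lie within the 3 described. The leading genes of the venous-like one also included Nr2f2, Icam1, Ptgs2, Il1r1 and Lrg1, so vessel position and endothelial activation cannot be told apart. The 10 genes took no part in choosing the clusters, but the cells were clustered, so these levels are a description. Levels in sub-clusters are raw CPM, not scaled by TMM. Mfsd2a was higher in arterial-like than venous-like cells in 14 of 14 libraries, with means of 394 ± 68.9 and 305 ± 68.3 CPM (SD, n = 14). Slc2a1 was likewise higher in arterial-like cells in 14 of 14, at 3136 ± 556 and 2666 ± 618 CPM, and so was Slco1c1, at 1645 ± 253 and 1427 ± 160 CPM.

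The order was opposite for the junction genes. Cldn5 was higher in venous-like cells in 14 of 14 libraries, at 6126 ± 2134 against 5412 ± 1857 CPM. Tjp1 stood at 574 ± 147 against 453 ± 125 CPM and Ocln at 366 ± 48.6 against 326 ± 46.0 CPM, each higher in venous-like cells in 14 of 14. Abcg2, at 1091 ± 94.4 against 899 ± 101 CPM, and Slco1a4, at 2198 ± 249 against 1927 ± 218 CPM, followed the same order in 14 of 14. Abcb1a was higher in venous-like cells in 11 of 14. In the unnamed sub-cluster Slco1a4 was above both others in 13 of 14 libraries, at 2609 ± 435 CPM, Abcg2 in 12, Ocln in 11, and Cldn5 and Slco1c1 in 10 each. Mfsd2a was above both there in 7, and Slc2a1, Tjp1 and Abcb1a in at most 2. By edgeR 0 of 9 genes were called in either transgene contrast in arterial-like cells (all genes 0.305% and 0.353%), venous-like cells (0.316% and 0.406%) or the unnamed sub-cluster (0.356% and 0.345%). With the replicate block 0 of 9 were again called between SOD1 and nTg, beside 0.524%, 0.523% and 0.634% of all genes.

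**Figure D3:**
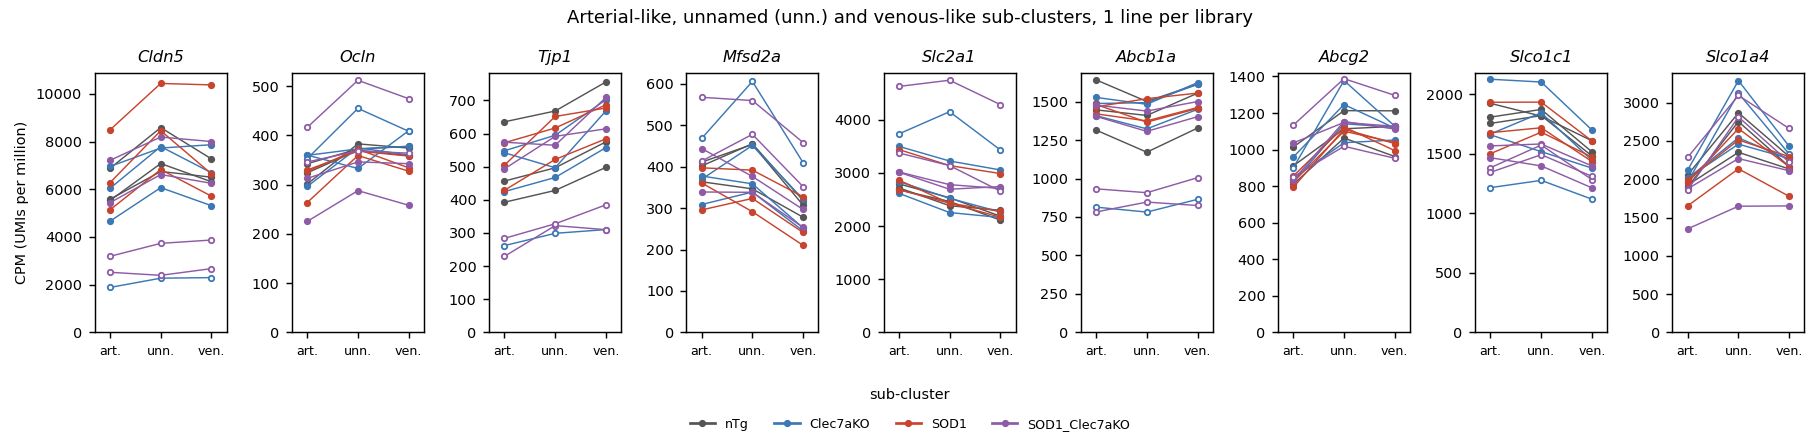
Level of each tested gene (y axis, raw CPM) in arterial-like, unnamed and venous-like endothelial sub-clusters (x axis). Each line joins the values of 1 library. Lines for Mfsd2a, Slc2a1 and Slco1c1 end lower in venous-like than arterial-like cells in 14 of 14 libraries, and lines for Cldn5, Ocln, Tjp1, Abcg2 and Slco1a4 end higher.

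Other genes of the barrier were read from fixed lists. Their counts stand beside the shares of all genes called in endothelial-like cells, which were 0.697% in SOD1 against nTg, 0.682% in SOD1_Clec7aKO against Clec7aKO, 0.00758% in SOD1_Clec7aKO against SOD1 and 1.8% in the mean of the 2 transgene contrasts, and counts of 0 in lists this short are near those shares. Of 21 further junction genes 16 were tested and 0 were called in any contrast. Of 23 genes of Wnt signalling and the barrier programme 23 were tested, and of 15 genes of vesicle transport 14, again with 0 calls. Of 25 further transporters 25 were tested, and 1 (all genes 1.8%) was higher in the mean of the 2 transgene contrasts: Slc38a5, a glutamine carrier, rose by 0.62 on the log2 scale (SE 0.13, edgeR adjusted p 0.0209). It stood at 279 ± 35.3 CPM in nTg, 299 ± 55.2 in Clec7aKO, 427 ± 20.3 in SOD1 and 464 ± 105 in SOD1_Clec7aKO; leaving out single libraries gave adjusted p up to 0.0726, the Xist covariate 0.0974, and the libraries numbered 1 to 12 alone 0.0187. The median transporter differed by 0.12 beside -0.01 for all genes.

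Of 15 genes of leukocyte adhesion and endothelial activation 12 were tested. In SOD1 against nTg 1 of 12 was called (all genes 0.697%), or 2 with the replicate block (1.24%), and in the mean of the 2 transgene contrasts 2 of 12 (1.8%). Lrg1, a secreted glycoprotein of activated venules, was higher in SOD1 than nTg (19.7 ± 14.4 against 0.925 ± 0.447 CPM, n = 3 each) by 4.36 on the log2 scale (SE 0.79, edgeR adjusted p 0.0140), and adjusted p reached 0.110 when single libraries were left out and 0.107 with the Xist covariate. On the knockout background it was not called, at 5.63 ± 3.31 CPM in Clec7aKO and 18.3 ± 9.93 in SOD1_Clec7aKO (n = 4 each), a difference of 1.76 (edgeR adjusted p 0.317). The mean of both contrasts was 3.06 (SE 0.49, adjusted p 0.00229), or 3.23 (adjusted p 0.00655) without the libraries numbered 13 and above. Cd74, the invariant chain of antigen presentation, rose by 2.02 in that mean (SE 0.47, edgeR adjusted p 0.0340), from 1.44 CPM in nTg and 8.05 in Clec7aKO to 9.62 in SOD1 and 22.4 in SOD1_Clec7aKO, with adjusted p up to 0.119 without single libraries, 0.151 with the Xist covariate and 0.0546 without the libraries numbered 13 and above. With the replicate block, a pairing taken from these same data, Cd74 was also called in SOD1 against nTg, which is a description only. Microglia also express Cd74, and the microglia markers given above were higher in the same sums; their part was not tested. The other 10 tested genes of this list were not called.

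Over the 14 endothelial-like sums, the gene most like each barrier gene in log2 CPM among 6601 genes was Psmb7 for Cldn5 (Pearson r 0.95), Apc for Tjp1 (0.98), Ltn1 for Abcb1a (0.98) and Gsk3a for Mfsd2a (0.94). Ocln was closest to Lmbrd1 (0.97), Slc2a1 to Selenop (0.92), Slco1c1 to Nkapd1 (0.94), Slco1a4 to Slc16a4 (0.94) and Abcg2 to Arpc5 (0.87). These values describe 14 libraries that share the step between the libraries numbered up to 12 and those above.

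Outside the endothelium several of the genes had clear levels. Summed over all libraries, Mfsd2a reached 286 CPM in astrocyte-like cells, 84.4% of its endothelial level of 338 CPM (by group, 81.3 ± 6.91% in nTg, 114.7 ± 20.2% in Clec7aKO, 49.4 ± 8.25% in SOD1 and 51.2 ± 10.3% in SOD1_Clec7aKO, mean ± SD over libraries), and 144 CPM in oligodendrocyte precursor-like cells. Slco1c1 stood at 133 CPM in astrocyte-like cells, 8.32% of its endothelial level (from 3.22 ± 1.14% in SOD1 to 10.97 ± 2.01% in Clec7aKO), and Slc2a1 at 416 CPM in ependymal-like and 254 CPM in astrocyte-like cells, 15.3% and 9.33%. Ocln reached 91.1 CPM in ependymal-like cells, 25.9% of its endothelial level. Tjp1, which also serves other junctions, was at 342 CPM in mural-like cells (63.5%), 157 in astrocyte-like and 76.6 in microglia-like cells. Cldn5 stood at 0.118 to 0.522% of its endothelial level in microglia-like, ependymal-like, oligodendrocyte precursor-like and astrocyte-like cells, at 2.29% in mural-like cells, at 2.67% in 142 neutrophil-like cells and at 12.6% in 64 B cell-like cells. Those 64 cells held all 9 genes other than Plvap at 11.7 to 17.7% of their endothelial levels (Slc2a1 at 366 CPM), a nearly even share over the 9 genes. Among named classes Plvap was highest in neuron-like cells, at 28.3 CPM over 813 cells (an unnamed cluster of 170 cells had 29.5), beside 5.34 in oligodendrocyte precursor-like and 0.204 in endothelial-like cells.

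**Figure D4:**
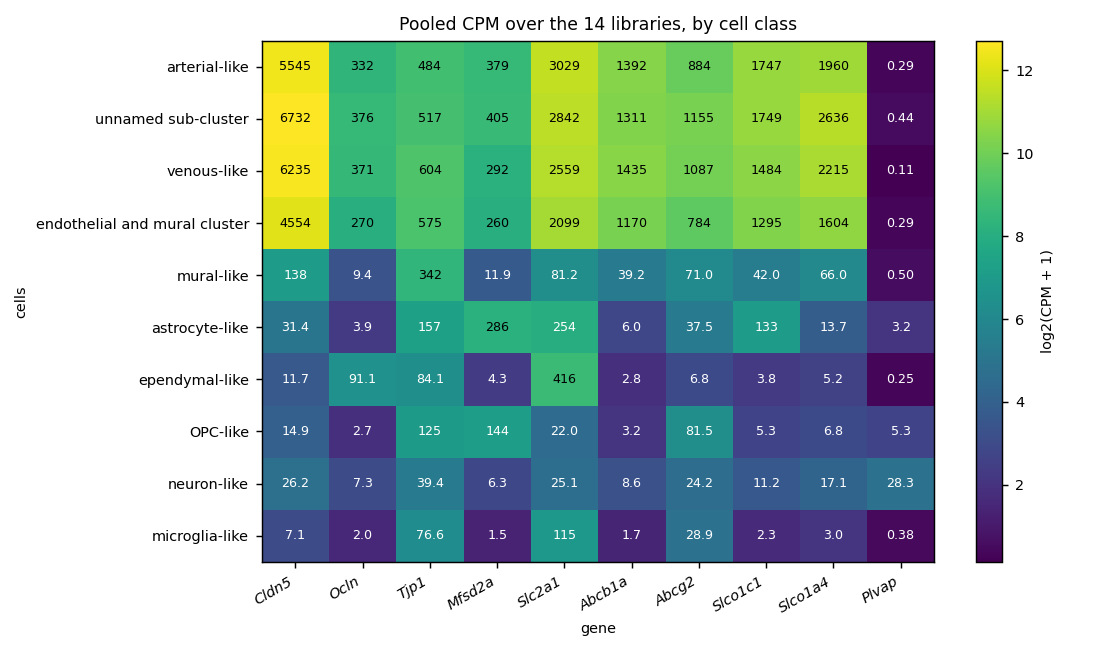
Summed level of each gene (columns, with CPM as number and log2 of CPM + 1 as colour) over all 14 libraries. Rows are the 3 endothelial sub-clusters described and the other cell classes shown. Besides the 3 endothelial sub-clusters and the endothelial and mural cluster, Mfsd2a is high in astrocyte-like and oligodendrocyte precursor-like cells, Slc2a1 in ependymal-like and astrocyte-like cells, and Tjp1 in mural-like cells.

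In astrocyte-like cells the 2 genes that fell with the transgene were Mfsd2a and Slco1c1. Mfsd2a measured 242, 326 and 287 CPM in nTg and 143, 166 and 142 in SOD1, and 317, 424, 441 and 398 in Clec7aKO against 177, 178, 238 and 192 in SOD1_Clec7aKO. No transgenic library reached the lowest library of its control group. Mfsd2a fell by 0.92 on the log2 scale in SOD1 (SE 0.19, edgeR adjusted p 0.00100) and by 1.01 in SOD1_Clec7aKO (SE 0.17, adjusted p 1.76e-04), or 1.15 without the libraries numbered 13 and above (adjusted p 4.17e-04).

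Slco1c1 measured 114, 206 and 171 CPM in nTg and 63.5, 62.6 and 31.5 in SOD1, and 155, 169, 175 and 161 in Clec7aKO against 56.4, 41.3, 60.9 and 28.4 in SOD1_Clec7aKO. It fell by 1.70 (SE 0.26, edgeR adjusted p 7.39e-05) and by 1.71 (SE 0.24, adjusted p 3.91e-05), again without overlap. Abcg2 rose by 1.01 (SE 0.29, adjusted p 0.0119), from 33.3, 19.6 and 31.4 CPM to 53.5, 60.8 and 56.0, and by 1.43 in SOD1_Clec7aKO (SE 0.27, adjusted p 6.85e-04). Its SOD1_Clec7aKO libraries were uneven, at 88.4, 91.0, 34.3 and 28.4 CPM against 26.8, 19.5, 35.0 and 20.4 in Clec7aKO, and the latter groups overlapped. SOD1_Clec7aKO replicate 4 held only 33 astrocyte-like cells, so its 28.4 CPM of Slco1c1 and of Abcg2 rest on few cells. Without the libraries numbered 13 and above, the SOD1_Clec7aKO differences were -1.74 for Slco1c1 (adjusted p 4.71e-04) and 1.70 for Abcg2 (adjusted p 8.41e-05). Without nTg replicate 2 the SOD1 difference of Abcg2 was 0.81 with an adjusted p of 0.0600.

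In all, 4 of 9 tested genes were called in SOD1 (2 higher, 2 lower), the fourth being Plvap, which rose by 2.18 from 0.846 to 2.13 raw CPM in nTg to 5.23 to 7.62 in SOD1 (SE 0.55, edgeR adjusted p 0.00492) and had 96 UMIs in this class in all. Plvap may have passed the filter on low counts only through libraries where it was high, so its call and its part in this count are a description only. In SOD1_Clec7aKO 3 of 9 were called. Among all genes of astrocyte-like cells 33.0% and 30.6% were called, so these shares are near the background. The makeup of the class also moved with the transgene: a cluster led by Slc7a10, Cldn10 and Gjb6 held 93.4% of astrocyte-like cells in nTg and 91.7% in Clec7aKO, but 34.9% in SOD1 and 36.7% in SOD1_Clec7aKO. The rest lay in a cluster led by A2m, Gfap and Serpina3n.

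Fits within 1 cluster kept all 14 libraries, with sums down to 14 cells in the first and 10 in the second, both in the SOD1_Clec7aKO against Clec7aKO comparison. Within the first of these clusters alone, Mfsd2a was 0.63 lower in SOD1 (adjusted p 0.0508) and 0.54 lower in SOD1_Clec7aKO (adjusted p 0.101). Slco1c1 fell by 1.15 (adjusted p 0.0110) in SOD1 and stood 0.94 lower (adjusted p 0.0557) in SOD1_Clec7aKO, while Abcg2 was 0.52 and 0.34 lower, the opposite direction, and not called. Within the second cluster alone Mfsd2a rose by 1.80 (adjusted p 0.00625) in SOD1 and differed by 0.61 (adjusted p 0.301) in SOD1_Clec7aKO. This second cluster held only 56, 21 and 44 cells in nTg libraries, beside 106, 143 and 248 in SOD1. Its SOD1 contrast therefore also rests on small control sums. In that cluster Slco1c1 differed by 0.02 and 0.43, and Abcg2 by -0.72 and -0.02, with no call by edgeR.

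In oligodendrocyte precursor-like cells Mfsd2a measured 154, 183 and 152 CPM in nTg, 158, 202, 204 and 280 in Clec7aKO, 104, 65.7 and 64.3 in SOD1 and 109, 69.7, 107 and 197 in SOD1_Clec7aKO. SOD1 did not overlap nTg, whereas SOD1_Clec7aKO replicate 4 lay within the range of Clec7aKO. The mean of the 2 transgene contrasts fell by 0.96 (SE 0.19, edgeR adjusted p 0.00364), and neither contrast alone was called (1.31% and 3.07% of all genes). With the replicate block, a pairing taken from these same data, the SOD1 contrast was called (edgeR adjusted p 0.00765), which is a description only. Without the libraries numbered 13 and above the mean was -1.05 (adjusted p 3.79e-04). Of 8 genes tested in this class 2 were called in that mean, Mfsd2a lower and Plvap higher, beside 8.05% of all genes. Plvap had 155 UMIs in this class in all. It may have passed the filter on low counts only through libraries where it was high, so its call is a description only.

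In microglia-like cells Slc2a1 measured 53.1, 49.0 and 54.0 CPM in nTg and 147, 158 and 130 in SOD1, and 46.5, 57.3, 41.4 and 87.3 in Clec7aKO against 126, 124, 251 and 252 in SOD1_Clec7aKO. It rose by 1.48 (SE 0.31, edgeR adjusted p 0.00229) and by 1.69 (SE 0.27, adjusted p 1.77e-04), with every transgenic library above every control library. Scaled to total counts in place of TMM, the differences were 1.02 and 1.20. Tjp1 measured 139, 100.0 and 112 CPM in nTg and 66.8, 67.4 and 71.3 in SOD1, a difference of -0.77 that did not pass the test (SE 0.30, edgeR adjusted p 0.0643), though it did with the replicate block (adjusted p 0.0208), with DESeq2 (adjusted p 0.0321), scaled to total counts in place of TMM (-1.23, adjusted p 0.0121) and without the libraries numbered 13 and above (adjusted p 8.61e-04). That last fit removed no library of SOD1 or nTg. The pairing of the replicate block was taken from these same data, so the call made with it is a description only. In SOD1_Clec7aKO Tjp1 fell by 1.04 (SE 0.26, edgeR adjusted p 0.00539), to 76.3, 65.0, 30.9 and 36.9 CPM from 118, 133, 112 and 68.9 in Clec7aKO. Without the libraries numbered 13 and above, the SOD1_Clec7aKO differences were -0.77 for Tjp1 (adjusted p 0.00218) and 1.37 for Slc2a1 (adjusted p 2.91e-05).

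**Figure D5:**
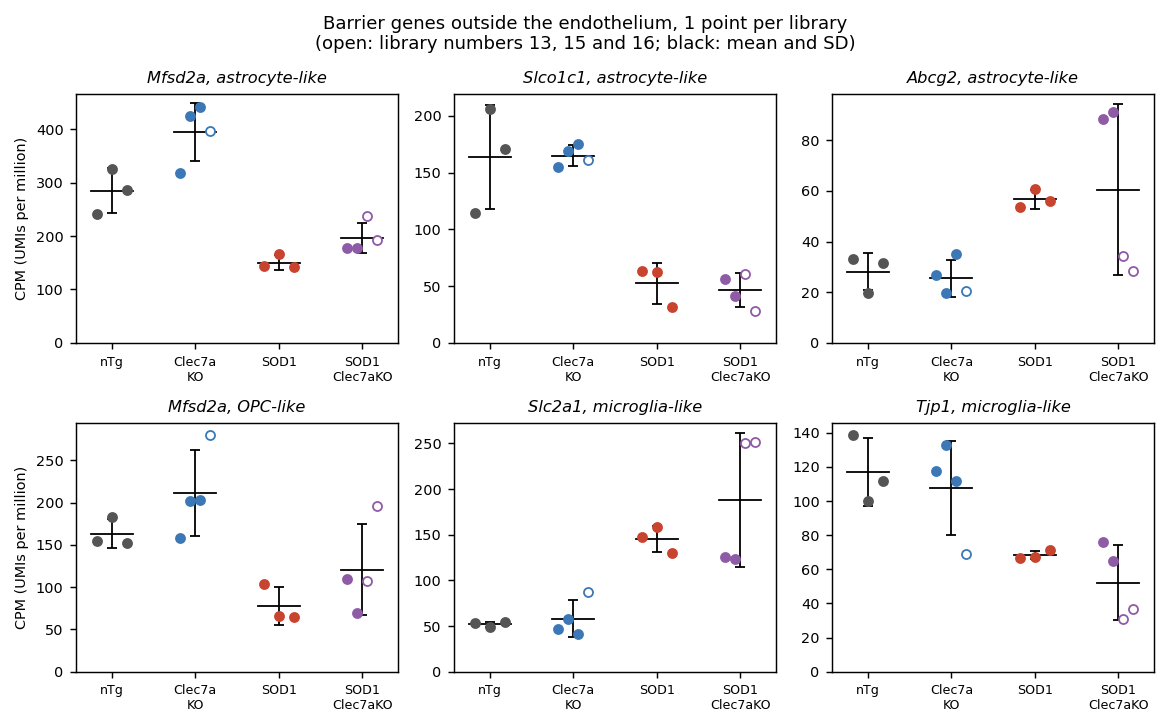
Levels of Mfsd2a, Slco1c1 and Abcg2 in astrocyte-like, Slc2a1 and Tjp1 in microglia-like and Mfsd2a in oligodendrocyte precursor-like cells (y axis, CPM scaled by TMM) for each library by group (x axis); points are libraries, open where numbered 13 and above, and black bars are group means with SD. In astrocyte-like cells Mfsd2a and Slco1c1 lie lower in transgenic than in control libraries, and microglia-like Slc2a1 lies higher.

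Of 10 genes tested in microglia-like cells, 1 was called higher and 3 lower in SOD1 (30.6% of all genes were called), or 1 and 5 with the replicate block (35.4% of all genes), and 2 were higher and 8 lower in SOD1_Clec7aKO (43.3%). Plvap was among those called lower each time. It may have passed the filter on low counts only through libraries where it was high, so its part in these counts is a description only. Most of those called lower were at background there: Cldn5, Ocln, Mfsd2a, Abcb1a, Slco1c1 and Slco1a4 stood at 0.118 to 0.561% of their endothelial levels, and the endothelial share of kept cells was also lower in transgenic libraries. The part of free endothelial RNA in those calls was not tested. The second gene called higher, Abcg2, depended on scaling: in raw CPM it was 28.5 to 30.9 in Clec7aKO and 27.2 to 27.6 in SOD1_Clec7aKO, which is lower. A cluster led by Crybb1, P2ry12 and Tmem119 held 90.0% and 89.6% of microglia-like cells in nTg and Clec7aKO but 6.34% and 5.15% in SOD1 and SOD1_Clec7aKO, and within it Slc2a1 differed by -0.0021 and 0.17 and Tjp1 by -0.22 and -0.47, with no call by edgeR. The microglia-like sums and shares leave out the unnamed cluster of 6983 cells, which held 138 CPM of Slc2a1 and 4.69 of Cldn5. A microglia-like cluster of 6537 cells held 139 and 4.37.

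The change in these cells was set against that in endothelium by a test of the difference itself. Each library was a block and p was adjusted over all genes. The changes differed in 14 of 22 comparisons. The genes and classes compared were chosen after the data were seen, so this count is a description only. The 22 include the precursor mean beside the contrasts it averages, and mural-like and ependymal-like cells were not compared in this way. In SOD1, Mfsd2a in astrocyte-like cells departed from its endothelial change by -0.75 on the log2 scale (SE 0.21, edgeR adjusted p 0.0182; all genes 16.9% called) and Slco1c1 by -1.69 (SE 0.30, adjusted p 5.40e-04). Slc2a1 in microglia-like cells departed by 1.33 (SE 0.24, edgeR adjusted p 6.81e-04; all genes 23.4% called). In SOD1_Clec7aKO 3 of 5 genes were called in astrocyte-like (all genes 11.6%) and 3 of 3 in microglia-like cells (27.3%). In oligodendrocyte precursor-like cells 1 of 2 was called in each contrast and in their mean (all genes 0.778%, 2.45% and 4.88%). In mural-like cells 0 of 7 tested genes, and in ependymal-like cells 0 of 9, were called in either transgene contrast (all genes 0.135% and 0.216%, and 0.835% and 1.1%). Their sums went down to 45 mural-like cells (SOD1_Clec7aKO replicate 2) and 26 ependymal-like cells (SOD1_Clec7aKO replicate 4). In a cluster of 3460 cells with both endothelial and mural markers, kept apart from the class, 0 of 9 were called (all genes 0.583% and 0.355%).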

How the data were processed

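Whole spinal cord cells of 14 libraries were captured with 10x 3′ chemistry. Per the labels, the values the authors deposited are raw UMI counts per gene and barcode, 1 matrix per library, not normalized; the submitters' processing notes name Cell Ranger, Seurat, DESeq2 and mm10, with no versions. Strand of counting and the annotation used are not given in the sources used here. Columns of other samples numbered 0.

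Kept cells had 500 genes and 1000 UMIs or more, and no more than 15% of UMIs from mitochondrial genes. Doublets were scored against simulated ones (2 per cell) and removed at 0.8% per 1000 barcodes. Cells were scaled to 10000 UMIs and clustered on 2000 variable genes without the 10 barrier genes (30 components, 15 neighbours, Leiden resolution 1.0), and clusters were named from fixed markers, so names may differ from the authors'. The cluster sharing endothelial with mural markers (3460 cells) was kept apart. UMIs were summed per library and class over at least 20 cells (fits within single clusters kept all libraries) and tested with edgeR 4.0.16 (R 4.3.3, TMM, filterByExpr, quasi-likelihood, all 14 libraries, 1 term per group, Benjamini-Hochberg adjusted p under 0.05); the script was checked on simulated data. Shares were compared by two-sided exact permutation tests. Comparisons of classes with endothelium used a library block and were added after the data were seen. Gene positions are from GENCODE vM21 (GRCm38; 54587 of 55335 identifiers matched) and sequences from RefSeq.

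The genes and lists were chosen with earlier results of these data known. Named were the 10 barrier genes, every called gene of a further list (or the 4 highest where more were called) and, for likeness, the genes with the highest correlation, of which the first is printed. Alternatives covered filters, doublets, clustering, normalization, DESeq2 1.42.0, library number, sex, a replicate block and each library left out. Deviations from the group means correlated positively in 16 of 19 same-numbered pairs of libraries. They exceeded 0.1 in all 3 pairs of nTg and SOD1 (0.11 to 0.15), where the numbers were taken to pair the libraries as a pattern of the data, not of the labels, and not in every pair of the other contrasts.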

Additional observations from a re-analysis of the deposited data

Results flagged for a closer look

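A sample far from the others of its group was found for 1 of 31 gene and group combinations tested by Dixon's criterion in groups of 4, a number that chance flags in about 1 of 20. Slc2a1 in endothelial-like cells stood at 4482 CPM in SOD1_Clec7aKO replicate 4 against 2680 to 2987 in the other 3 libraries (gap over range 0.830).

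The change with the transgene differed from that in endothelial-like cells in 14 of 22 comparisons, by edgeR with a library block. The genes and the 3 classes were chosen after the data were seen. The 22 include the precursor mean beside the contrasts it averages. Differences are the other class minus endothelium on the log2 scale. Of all genes 16.9% and 11.6% differed in astrocyte-like cells (SOD1, then SOD1_Clec7aKO), 23.4% and 27.3% in microglia-like cells and 0.778% and 2.45% in oligodendrocyte precursor-like cells (4.88% in the mean). In astrocyte-like cells Mfsd2a differed by -0.75 in SOD1 (adjusted p 0.0182) and by -1.17 in SOD1_Clec7aKO (adjusted p 2.85e-04). Slco1c1 differed by -1.69 (adjusted p 5.40e-04) and -1.63 (adjusted p 5.26e-04), and Abcg2 by 1.08 (adjusted p 0.0260) and 1.30 (adjusted p 0.00772). In microglia-like cells Slc2a1 differed by 1.33 (adjusted p 6.81e-04) and 1.61 (adjusted p 1.54e-05), and Tjp1 by -0.89 (adjusted p 1.66e-04) and -0.84 (adjusted p 4.03e-05). Abcg2 there differed by 0.44 (adjusted p 0.0153) in SOD1_Clec7aKO, a call that depends on scaling as given in the results. In oligodendrocyte precursor-like cells Mfsd2a differed by -0.85 (adjusted p 0.0257) and -0.90 (adjusted p 0.00359), and by -0.88 in the mean (adjusted p 1.33e-04). Shares of clusters within the astrocyte-like and microglia-like classes moved with the transgene as given in the results; their part was not tested.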

How the results depend on the processing

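For the 9 barrier genes in 3 group contrasts of endothelial-like cells, 36 alternative settings gave 0 calls, with a lowest adjusted p of 0.215; differences changed sign in 61 cases, the largest of these at a size of 0.468. Those from single settings were as follows, on the log2 scale, with A for SOD1 minus nTg, B for SOD1_Clec7aKO minus Clec7aKO and C for SOD1_Clec7aKO minus SOD1. Settings chosen after seeing the data were those on sub-clusters or single clusters, on only the libraries numbered 1 to 12 and on a term for libraries 13 to 16. With library number as a covariate, A was -0.47 for Cldn5, -0.25 for Tjp1, 0.094 for Mfsd2a, 0.090 for Ocln and 0.078 for Slco1a4. In that fit C was -0.090 for Ocln and -0.10 for Slco1a4. Library number separates SOD1 from nTg completely, as given in the results. With only libraries 1 to 12, B was 0.063 for Cldn5, 0.012 for Tjp1, -0.0065 for Mfsd2a and -0.0055 for Abcg2, and C was -0.25 for Ocln and -0.22 for Slco1a4. With a term for libraries 13 to 16, B was 0.21 for Cldn5, 0.039 for Tjp1, -0.0092 for Mfsd2a and -0.012 for Abcg2, and C was -0.15 for Ocln and -0.14 for Slco1a4. Without doublet removal, A was -0.067 for Cldn5, -0.058 for Slc2a1 and -0.11 for Tjp1, and B was -0.15 for Abcg2, -0.040 for Mfsd2a and -0.027 for Slc2a1. With the Xist covariate for sex (Xist above Ddx3y in 2 of 3 nTg and 0 of 3 SOD1 libraries), A was -0.030 for Cldn5, 0.026 for Abcb1a and 0.017 for Abcg2. In the unnamed sub-cluster A was 0.072 for Abcb1a, B was -0.047 for Abcg2 and -0.016 for Mfsd2a, and C was -0.0021 for Slco1a4. Abcb1a in A was 0.0084 in arterial-like cells, 0.0071 in venous-like cells, 0.0100 without sub-clusters led by other cell types and 0.025 without cells holding a mural UMI. Abcg2 in B was -0.037 without cells holding a mural UMI, -0.012 in venous-like cells, -0.0071 with doubled doublet removal, -0.021 without the filter on low counts, -0.0028 at Leiden resolution 2.0 and -0.00097 with the barrier genes among the variable genes.

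Leaving out single libraries, A ranged from -0.073 to 0.060 for Abcb1a, -0.029 to 0.28 for Cldn5, -0.021 to 0.28 for Slc2a1, -0.16 to 0.043 for Slco1c1 and -0.017 to 0.29 for Tjp1. B ranged from -0.068 to 0.068 for Abcg2, -0.43 to 0.087 for Cldn5, -0.033 to 0.29 for Mfsd2a, -0.28 to 0.031 for Ocln and -0.070 to 0.24 for Slc2a1. C ranged from -0.095 to 0.22 for Ocln and -0.083 to 0.16 for Slco1a4. The difference in the share of cells with a Plvap UMI ranged from 0 to 0.0739 percentage points in A, -0.0414 to 0.0343 in B, -0.0492 to 0.0343 in C and 0 to 0.0552 in Clec7aKO minus nTg. Same-numbered libraries correlated in their deviations at 0.11 to 0.15 in A, 0.023 to 0.51 in B, -0.31 to 0.13 in C and -0.088 to 0.52 in Clec7aKO minus nTg. In A 6 of 6 libraries correlated best with their own number, in B 1 of 8, in C 2 of 6 and in the last 4 of 6. With the replicate block, which changed calls of barrier genes in A only where the results say so, C was -0.032 for Ocln and -0.041 for Slco1a4, and 164, 152, 1 and 393 genes were called in A, B, Clec7aKO minus nTg and the mean of A and B.

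Over all genes, edgeR called 92 in A, 90 in B, 1 in C, 0 in Clec7aKO minus nTg, 238 in the mean and 0 in the difference of A and B. In the same order DESeq2 called 159, 164, 2, 4, 371 and 2, and edgeR without the filter on low counts 435, 459, 198, 135, 821 and 65. Without doublet removal 554 were called in A, 650 in B, 1347 in the mean and 1 in the difference. The Xist covariate gave 33 in A and 158 in the mean, cells without a mural UMI 21 in A, 37 in B and 97 in the mean, and library number as a covariate 153 in B. Arterial-like cells gave 32 in A, 37 in B, 72 in the mean, 0 in C and 1 in Clec7aKO minus nTg, venous-like cells 35, 45, 74 and 0 in A, B, the mean and C, and the unnamed sub-cluster 32, 31, 64 and 0. Without sub-clusters led by other cell types 60 were called in A and 0 in C, with only libraries 1 to 12 C had 0, and with a term for libraries 13 to 16 C had 0 and Clec7aKO minus nTg 1. Doubled doublet removal, or the endothelial and mural cluster added, gave 1 in the difference. Leaving out single libraries gave 41 to 125 in A (41 without nTg replicate 3), 51 to 125 in B (51 without Clec7aKO replicate 2), 0 to 3 in Clec7aKO minus nTg and 0 to 1 in the difference. The cause of these changes was not tested.

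In astrocyte-like cells, restriction to the largest cluster turned Abcg2 to -0.52 in A and -0.34 in B, and restriction to the second cluster gave -0.72 and -0.020 for Abcg2, 1.80 and 0.61 for Mfsd2a and 0.021 and 0.43 for Slco1c1. Slc2a1 in the largest microglia-like cluster was -0.0021 in A. A capillary-like subset was not run, since no sub-cluster met that name. Shallow sums and groups of 3 or 4 libraries limit what size of change could be seen. Sums went down to 299 endothelial-like, 33 astrocyte-like and 26 ependymal-like cells, all in SOD1_Clec7aKO replicate 4. The smallest mural-like sum held 45 cells, in SOD1_Clec7aKO replicate 2.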

Other observations

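Ependymal-like cells, which line the central canal, held the highest levels of Ocln and Slc2a1 among the named classes outside the vessel wall, at 91.1 and 416 CPM, and 0 of 9 tested barrier genes were called there. Small unnamed clusters had more: 258 cells led by Apod and Dcn held 153 CPM of Ocln and 1262 of Slc2a1, beside 2716 of Cldn5, and 124 cells led by haemoglobin genes held 219 and 1698, beside 4361 of Cldn5. Mural-like cells, which wrap the endothelium, held Tjp1 at 342 CPM and Abcg2 at 71.0 CPM. In the cluster with endothelial and mural markers, Cldn5 stood at 75.6% and Tjp1 at 107% of the endothelial level.

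Plvap was unevenly spread over the classes. Neuron-like cells had 202 of its UMIs in 813 cells (28.3 CPM), whereas 11180 endothelial-like cells had 20. Mfsd2a and Slco1c1, by contrast, were shared between endothelium and astrocyte-like cells at 84.4% and 8.32% of the endothelial level over all libraries, shares that differed between the groups as given in the results, while Slco1a4, of the same carrier family as Slco1c1, was at 0.634% there.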
